A study of Mus musculus with 10 samples.

Results

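The genes Il33, Apod, Trf, Car2, Ndrg1, Qdpr, Klk6, Gjb1, Ppp1r14a and Anln, known from mature oligodendrocytes, were followed in the mouse dentate gyrus from 4 to 12 weeks of age. These 10 genes were taken by name from the 19752 genes that the arrays measured with a probe set naming 1 gene only. The probe set was to be selected on its mean level over the arrays, the highest of a gene, but each of the 10 has exactly 1, so that measured level decided nothing. The names themselves were chosen by knowledge of the cell type and with the age trends of these same arrays in view, as oligodendrocyte genes that may rise or hold. Their changes with age are therefore given as a description, and no test of them is used as support.

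The series holds 10 whole-transcript arrays of total RNA from dentate gyri of mice of the strain that the labels write C56BL/6J, with no treatment. There are 5 groups, aged 4, 6, 8, 10 and 12 weeks, each with 2 arrays, and the groups share strain, tissue and dissection. The study's title speaks of neuroprogenitor biomarkers, and the comparison is that of the ages. The labels name no animals or pools behind the 2 arrays of an age, so errors measure the spread between arrays, which may be partly technical. The small number of arrays limits their precision. Errors of the linear fit over age also hold departures of the age means from a straight line. The values are deposited levels on what is taken as a log2 scale.

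Oligodendrocytes wrap axons in myelin. They arise from dividing precursors, pass through a short newly formed stage, build the membrane sheath, and then persist as mature cells that keep the sheath, buffer ions and iron, and supply metabolites to the axon. The genes followed here are known from that last stage, although none of them is exclusive to it. Apod is also expressed by fibroblasts, Trf and Car2 by the choroid plexus, Il33 by astrocytes, and Anln by any dividing cell.

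The sex label, the arrays that stood apart and the tissue were checked first. The labels give the sex as female, but Xist, which marks an inactive X chromosome, lay between 5.41 and 6.02 log2 units, and genes of the Y chromosome were bright, with means of 8.97 for Eif2s3y, 9.06 for Kdm5d and 9.23 for Uty, so the libraries went against that label. Array medians lay between 8.27 and 8.31. A reference for dim signal was set at 7.01, the mean over arrays of the 95th percentile of 1207 olfactory, vomeronasal and trace amine receptor genes, few of which are thought to be active in brain. On 6 weeks replicate 1 Ttr, a choroid plexus gene, stood at 13.77, against 8.87 to 10.15 on the other arrays, and 8 weeks replicate 1 had the narrowest distribution of values (SD 2.12). Without both of these arrays the fitted change of the 10 genes kept its direction for each of them, with values from -0.09 for Car2 to 0.57 for Il33. Of 10 defining oligodendrocyte markers outside the set, 9 were measured, all of them above the dim reference, and those of granule neurons were too (10 of 10).

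The genes of the oligodendrocyte set are described by how their arrays lay between ages, with no sharp border between the groups. Il33, Apod, Ndrg1 and Qdpr had both 4-week arrays below all 8 older arrays, which held for 4.18% of all genes, and 0 had both above all 8, which held for 4.11%. Car2, Klk6, Gjb1 and Ppp1r14a had age means within 0.17 log2 units of each other, and arrays that overlapped between ages next to each other in the order of their means. Qdpr had the same range of age means as Klk6, 0.17. Trf, Klk6, Gjb1 and Ppp1r14a also had their lowest mean at 4 weeks, but with arrays that overlapped those of the next age in that order. Trf and Anln went up and down between ages. In limma's linear fit over age, a gene was called where its Benjamini-Hochberg adjusted p was under 0.05 over all 19752 genes. Il33 was called as higher, which is 1 of the 10 genes beside 0.147% of all genes called as higher. None was called as lower, beside 0.673% of all genes. In limma's comparison of 12 with 4 weeks Il33 and Apod were called as higher, 2 of 10 beside 0.127%, and 0 as lower, beside 0.390%. Without any adjustment, 2 of the 10 genes, Il33 and Ndrg1, had a trend p under 0.05, as did 11.7% of all genes. Since the set was proposed on this contrast, nothing is read from these shares.

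**Figure D1:**
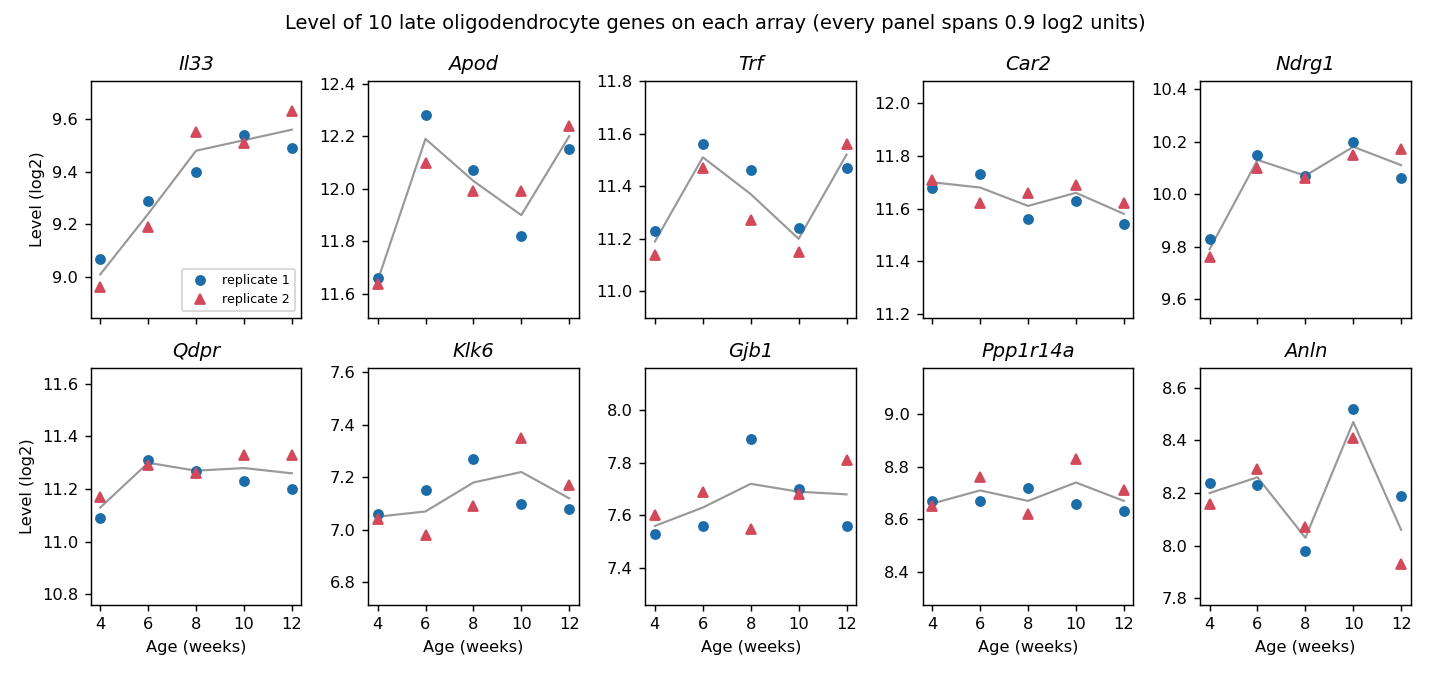
Level of each of the 10 genes in log2 units against age in weeks. Points are single arrays, 2 at each age, the line joins the age means, and every panel spans the same 0.9 log2 units. Il33, Apod, Ndrg1 and Qdpr have both 4-week arrays below all the others, and Anln is highest at 10 weeks.

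Il33 encodes interleukin 33, an alarmin of the interleukin 1 family that is stored in the nucleus bound to chromatin and released from damaged cells. Of the set it had the largest fitted linear change, while its difference of 12 from 4 weeks, 0.55, was equalled by that of Apod. The gene lies on chromosome 19 at 29925113 to 29960718 (GRCm38.p6, the assembly that mm10 represents). RefSeq gives it a pair of start sites some distance apart, and a window of 250 bases before to 50 after each is shown because Il33 was the gene called in both comparisons. Capitals mark the letters of a TATA box, TATAAA, on either strand.
Il33 upstream start, chr19:29924863-29925162, plus strand: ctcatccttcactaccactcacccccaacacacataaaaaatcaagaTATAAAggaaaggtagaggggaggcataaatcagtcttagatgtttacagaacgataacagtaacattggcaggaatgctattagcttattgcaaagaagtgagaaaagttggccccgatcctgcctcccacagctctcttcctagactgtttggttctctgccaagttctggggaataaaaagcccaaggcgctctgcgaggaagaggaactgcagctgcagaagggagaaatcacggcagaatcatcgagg
Il33 downstream start, chr19:29945540-29945839, plus strand: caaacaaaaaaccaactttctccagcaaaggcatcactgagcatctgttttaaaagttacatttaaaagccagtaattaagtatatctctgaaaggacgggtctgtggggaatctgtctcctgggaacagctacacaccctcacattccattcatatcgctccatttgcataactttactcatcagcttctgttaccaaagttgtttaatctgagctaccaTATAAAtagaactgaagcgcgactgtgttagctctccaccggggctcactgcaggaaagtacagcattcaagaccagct
In the downstream window the TATAAA run begins at position -29, counted from the start site, and in the upstream window at position -203. A TATAAA run is found in 13.6% of the 32851 windows of this length in the table. The single probe set of Il33 does not separate the transcripts of these starts. A predicted gene, Gm41832, overlaps the locus, and the files do not say which strand the probes read, so its signal and that of Il33 cannot be told apart here.

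Il33 stood at 9.07 and 8.96 log2 units at 4 weeks, 9.29 and 9.19 at 6 weeks, 9.40 and 9.55 at 8 weeks, 9.54 and 9.51 at 10 weeks, and 9.49 and 9.63 at 12 weeks. Arrays of 4, 6 and 8 weeks did not overlap, while those of 8, 10 and 12 weeks did. The age means were 9.01 ± 0.08 at 4 weeks and 9.56 ± 0.10 at 12 weeks (SD, n = 2). Most of the difference thus lay before 8 weeks, with steps of 0.23 from 4 to 6 weeks and 0.23 from 6 to 8 weeks, then 0.05 and 0.04. The fitted change over the 8 weeks was 0.55 ± 0.09 (SE), or 1.47-fold, with a 95% interval from 0.36 to 0.74. It was 0.54 without 4 weeks replicate 1 and 0.48 without 4 weeks replicate 2, and either omission ended the call.

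The Il33 signalling list holds genes of the receptor chains of interleukin 33 and of adaptors and kinases downstream. It also holds the related receptors Il1rl2 and Sigirr and the negative regulator Tollip. Its counts are thus not those of that pathway alone. Il1rl2 had a mean of 5.81, under the dim reference. Of the 10 listed, 8 were measured and 0 were called in limma's trend, with 3 changes above 0, a median of -0.04, and a background of 0.820% of all genes called in either direction. Il1rap, the co-receptor, had a change of -0.04 ± 0.09 and the adaptor Myd88 one of 0.15 ± 0.10 (SE, log2 over 8 weeks). The receptor gene Il1rl1 was not analysed here.

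Apod encodes apolipoprotein D, a secreted lipocalin that carries small lipids and protects against lipid peroxidation. Its gene lies on chromosome 16 at 31296192 to 31314808. Its promoter window is printed because Apod was the other gene called between 12 and 4 weeks, and capitals mark the only match to the Sox letters ACAAAG, searched on both strands.
Apod, chr16:31314759-31315058, minus strand: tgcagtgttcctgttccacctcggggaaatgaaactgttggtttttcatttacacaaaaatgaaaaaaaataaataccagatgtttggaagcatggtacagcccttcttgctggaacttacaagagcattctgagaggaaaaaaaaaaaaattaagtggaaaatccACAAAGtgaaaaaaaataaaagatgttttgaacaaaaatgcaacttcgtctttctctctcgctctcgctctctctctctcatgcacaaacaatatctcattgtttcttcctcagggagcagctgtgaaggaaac
The match begins at position -84. These letters occur in 18.7% of all windows, and in 4 of the 12 windows that the table holds for 7 of the 10 genes: that of Apod, 2 of the 4 of Gjb1 and 1 of the 2 of Klk6. A Myrf motif, CTGGCAC, was found in 0 of the 12 windows and in 5.01% of all windows. Windows for Anln, Ppp1r14a and Qdpr were rich in CpG, with 30, 25 and 23 CpG pairs against a median of 7, while that of Apod held 4 and those of Il33 held 6 and 5. Entries for Trf, Car2 and Ndrg1 are missing from the table.

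The levels of Apod were 11.66 and 11.64 log2 units at 4 weeks, 12.28 and 12.10 at 6 weeks, 12.07 and 11.99 at 8 weeks, 11.82 and 11.99 at 10 weeks, and 12.15 and 12.24 at 12 weeks. Both 4-week arrays were the lowest, and the 6- and 12-week arrays overlapped at the top. The step from 4 to 6 weeks was 0.54, followed by differences of -0.16 and -0.13 to 10 weeks and of 0.29 to 12 weeks. The difference of 12 from 4 weeks was 0.55 ± 0.09 (SE), or 1.46-fold; it ran from 0.50 to 0.59 over the alternative fits, and the call, like that of Il33 in this comparison, was lost without either array of 4, 10 or 12 weeks. A straight line gave 0.32 ± 0.15, with an interval from -0.02 to 0.66, since the path was not linear; it gave 0.22 and 0.21 without replicate 1 and replicate 2 of 4 weeks. In the list of other lipocalins and apolipoproteins, which also holds Bsg and Lepr, genes of neither family, 0 of 8 were called in limma's trend. Ptgds, the prostaglandin D synthase and lipocalin, had a change of 0.07 ± 0.17, and Lcn2 one of 2.32 ± 0.79 that came from the 12-week arrays (6.68 ± 0.02 at 4 weeks, 10.05 ± 0.52 at 12 weeks, SD, n = 2). In limma's comparison of these ages Lcn2 rose by 3.37, with an adjusted p of 0.0029.

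Trf encodes transferrin, the iron carrier that oligodendrocytes make and that supports their own iron supply. Chromosome 9 holds it at 103208876 to 103230286. It stood at 11.23 and 11.14 at 4 weeks, 11.56 and 11.47 at 6 weeks, 11.46 and 11.27 at 8 weeks, 11.24 and 11.15 at 10 weeks, and 11.47 and 11.56 at 12 weeks (log2). The arrays of 4 and 10 weeks overlapped at the bottom and those of 6 and 12 weeks at the top. Successive age means differed by 0.33, -0.15, -0.17 and 0.32, each larger than the within-age SD of 0.08. The linear change was 0.14 ± 0.13 (SE), with an interval from -0.15 to 0.42, and it was -0.05 per 8 weeks without the 12-week arrays, 0.05 without 4 weeks replicate 2 and 0.06 without 12 weeks replicate 2. Of 14 iron handling genes 0 were called in limma's trend, 7 with changes above 0 and 7 below. Tfrc, the transferrin receptor, had a change of 0.00 ± 0.11, and Fth1, ferritin heavy chain, one of 0.09 ± 0.05.

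Across the 10 arrays Apod and Trf went together, with a Pearson r of 0.86, the highest of the 45 pairs in the set. It was 0.83 without 6 weeks replicate 1. Of the 45 pairs 30 had an r above 0, with a median of 0.29. Il33 and Ndrg1 had 0.81, as did Ndrg1 and Qdpr, and the lowest r was -0.48, between Trf and Anln. Deviations from the age means, which leave out the ages, had r = 0.34 for Apod and Trf and a median of 0.22 over the pairs. Arrays share their tissue piece and normalization, so these values describe the arrays.

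**Figure D2:**
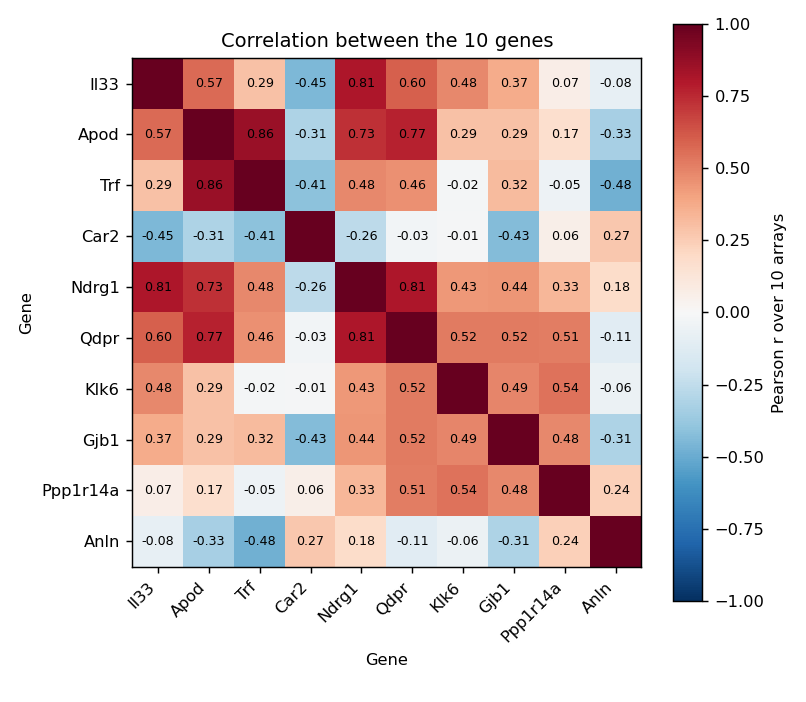
Pearson correlation between the levels of the 10 genes over the 10 arrays, as a colour from -1 to 1 with the value printed in each cell. Apod and Trf have the highest value, 0.86, and Anln has values below 0 with Trf (-0.48) and Apod (-0.33).

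Markers of endothelium and of fibroblasts, which lie around vessels and in the meninges, were read beside Apod and Trf. The mean level of 10 fibroblast markers lay between 8.68 and 8.79 at 4 weeks, 8.94 and 9.13 at 6 weeks, 8.90 and 9.0 at 8 weeks, 8.50 and 8.74 at 10 weeks, and 8.72 and 9.07 at 12 weeks. That of 9 endothelial markers ran from 8.91 to 9.0, 9.11 to 9.18, 9.06 to 9.12, 8.92 to 9.01, and 9.04 to 9.33 at the same ages. Over the 10 arrays Apod had r = 0.70 with the fibroblast mean and 0.79 with the endothelial mean, and Trf had 0.71 and 0.74. None of the fibroblast markers, led in the list by Dcn (-0.01 ± 0.35) and Lum (-0.09 ± 0.12), and none of the endothelial ones, led by Cldn5 (0.24 ± 0.13) and Flt1 (0.40 ± 0.12), was called in limma's trend, and none had a mean under the dim reference. Changes in the trend were above 0 for 3 of 10 fibroblast and 6 of 9 endothelial markers. Between 12 and 4 weeks 6 of 10 and 7 of 9 differences were above 0, with medians of 0.03 and 0.26 and 0 called in either list. The largest of the fibroblast differences, picked out after their values were seen, were 0.76 for Slc6a13, 0.67 for Aldh1a2 and 0.46 for Dcn. For Il33 the same correlations were 0.05 and 0.40, for Qdpr 0.58 and 0.69, and for Anln -0.69 and -0.63. The remaining genes had 0.09 to 0.28 with the fibroblast mean and -0.05 to 0.44 with the endothelial mean. Within ages, the 2 arrays of Apod differed in the direction of the fibroblast mean at 4 of 5 ages and of the endothelial mean at 3 of 5. Those of Trf did so at 3 and 2 of 5 ages. The part of these cells in the levels of Apod and Trf was not tested.

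**Figure D3:**
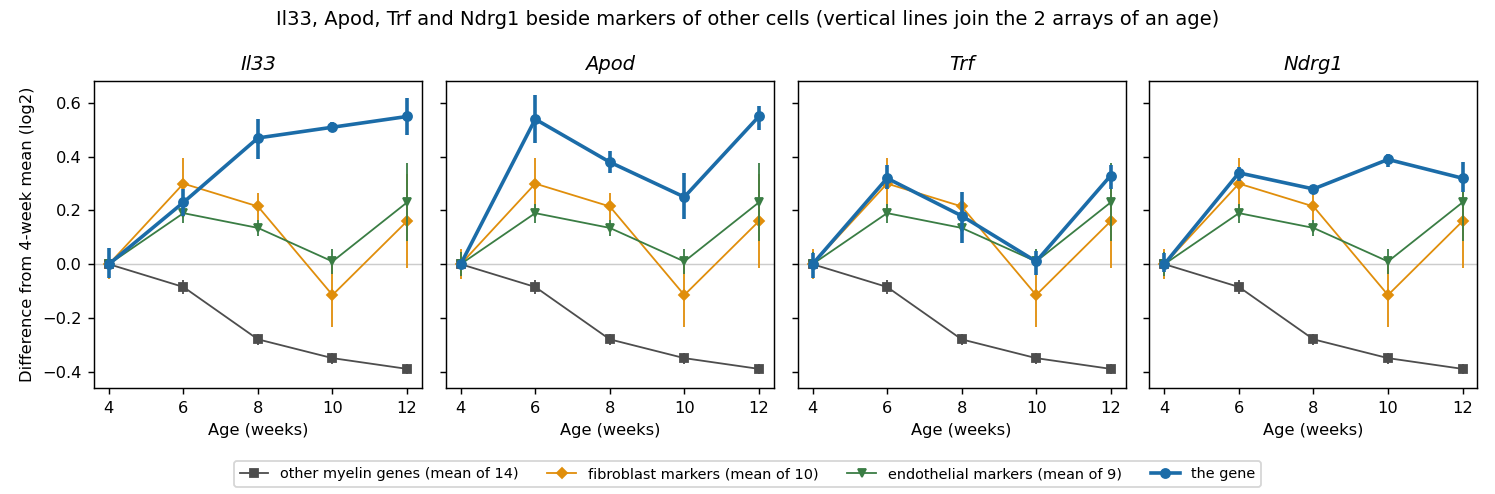
Difference from the 4-week mean in log2 units against age in weeks, for Il33, Apod, Trf and Ndrg1 (thick lines) and for the means of 14 other myelin genes, 10 fibroblast markers and 9 endothelial markers. Points are age means and vertical lines join the 2 arrays of an age. Apod and Trf are highest at 6 and 12 weeks; the fibroblast mean is highest at 6 weeks and at 12 weeks has 1 array within the 4-week range, the endothelial mean is above both 4-week arrays at 6, 8 and 12 weeks, and the myelin genes are lower at each later age.

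Ndrg1 encodes a cytoplasmic protein of the N-myc downstream regulated family that Schwann cells need to maintain myelin and that is also known from mature oligodendrocytes (chromosome 15, 66929318 to 66969641). Its levels were 9.83 and 9.76 at 4 weeks, 10.15 and 10.10 at 6 weeks, 10.07 and 10.06 at 8 weeks, 10.20 and 10.15 at 10 weeks, and 10.06 and 10.17 at 12 weeks. The 4-week arrays stood apart below, and later successive means differed by at most 0.11. The first step was 0.33, and the fitted change over the series 0.27 ± 0.09 (SE), or 1.21-fold, with an interval from 0.07 to 0.48. It was 0.19 without 4 weeks replicate 2. Of 5 family members and their kinases 0 were called in limma's trend. The astrocyte-enriched Ndrg2 had a change of 0.04 ± 0.06 and Ndrg3 one of -0.02 ± 0.06.

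Qdpr and Car2 are intracellular enzymes. Qdpr, dihydropteridine reductase, regenerates tetrahydrobiopterin, the cofactor of aromatic amino acid hydroxylases (chromosome 5, 45434032 to 45450229). It stood at 11.09 and 11.17 at 4 weeks and between 11.20 and 11.33 on the 8 later arrays. The step from 4 to 6 weeks was 0.17, against a within-age SD of 0.06, and the linear change 0.10 ± 0.07 (SE) had an interval from -0.05 to 0.25. That change was 0.04 without 4 weeks replicate 1 and 0.16 without 12 weeks replicate 1. Genes of tetrahydrobiopterin metabolism gave 0 calls among 8 measured in limma's trend, with 0.18 ± 0.09 for Gch1, which is under the dim reference, and 0.19 ± 0.09 for Gchfr.

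Car2 encodes cytosolic carbonic anhydrase, which interconverts carbon dioxide and bicarbonate and is abundant in oligodendrocytes (chromosome 3, 14886269 to 14900770). Its 10 levels ran from 11.54 to 11.73, the narrowest range of the set, and neighbouring ages in the order of means overlapped throughout. At 4 weeks the mean was 11.70 ± 0.02 and at 12 weeks 11.58 ± 0.06 (SD, n = 2). The fitted change of -0.10 ± 0.06 (SE) had an interval from -0.23 to 0.03. None of 11 genes of other carbonic anhydrases and bicarbonate transporters was called in limma's trend; Car1 and Car3, the first in the list, are under the dim reference, at 0.19 ± 0.20 and -0.09 ± 0.06.

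Gjb1 encodes connexin 32, a gap junction channel that couples oligodendrocytes with each other and with astrocytes (X chromosome, 101376376 to 101385629). Levels ran from 7.53 to 7.89, and the 2 arrays of 8 weeks, at 7.89 and 7.55, spanned almost that whole range. The pooled within-age SD, 0.14, was close to the range of the age means, 0.16. Its change was 0.12 ± 0.10 (SE), with an interval from -0.09 to 0.34, and it was 0.21 without 12 weeks replicate 1 and 0.07 without 12 weeks replicate 2. Of 7 other connexin genes measured, Gjd2, which forms gap junctions between neurons, fell by 0.44 on the log2 scale (limma adjusted p = 0.030), a call that was lost without either 4-week array, either 6-week array, 10 weeks replicate 1 or either 12-week array. The oligodendrocyte connexin Gjc3 had -0.34 ± 0.09 and the astrocyte connexin Gja1 -0.18 ± 0.05, neither of them called.

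Klk6 encodes a secreted trypsin-like protease of mature oligodendrocytes that cleaves myelin proteins and protease-activated receptors (chromosome 7, 43824438 to 43832027). It is close to the dim reference: levels ran from 6.98 to 7.35, and 9 of 10 arrays were above the percentile that those receptors had on that array. A change at such levels may be understated. The fitted value was 0.12 ± 0.09 (SE), with an interval from -0.08 to 0.32 (0.08 without 10 weeks replicate 2, 0.18 without 12 weeks replicate 1), and arrays of ages next to each other in the order of means overlapped throughout. None of 9 related kallikreins and protease-activated receptors was called in limma's trend, with -0.08 ± 0.11 for Klk8 and 0.12 ± 0.09 for Klk7.

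Ppp1r14a encodes CPI-17, an inhibitor of myosin phosphatase that is enriched in mature oligodendrocytes and smooth muscle (chromosome 7, 29289320 to 29293390). It had the flattest course, with age means between 8.66 and 8.74, a range of 0.08 beside a within-age SD of 0.07. The change was 0.02 ± 0.07 (SE) and its interval ran from -0.13 to 0.16. Among 10 measured genes of myosin phosphatase and its regulators its relative Ppp1r14c fell by 0.51 on the log2 scale (limma adjusted p = 0.011; not called without either 4-week array), while the targeting subunits Ppp1r12a and Ppp1r12b had -0.02 ± 0.06 and -0.04 ± 0.06.

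Anln encodes anillin, which links actin, septins and the membrane in dividing cells and loads the septin scaffold of mature myelin (chromosome 9, 22331214 to 22389211). Its levels were 8.24 and 8.16 at 4 weeks, 8.23 and 8.29 at 6 weeks, 7.98 and 8.07 at 8 weeks, 8.52 and 8.41 at 10 weeks, and 8.19 and 7.93 at 12 weeks. Only the 10-week arrays stood clear of all others, 0.44 above the 8-week mean and 0.40 above that of 12 weeks. No linear course described it (-0.03 ± 0.15, SE; 0.12 without 12 weeks replicate 2 and -0.10 without 10 weeks replicate 1). The transcript 9530077C05Rik overlaps the locus and cannot be told apart from it without the strand of the probes. The mean of 9 genes of mitosis lay between 7.69 and 7.75 at 4 weeks, 7.22 and 7.25 at 10 weeks and 7.07 and 7.21 at 12 weeks. Mki67 (-0.87 ± 0.12), Ccna2 (-0.87 ± 0.09), Top2a (-0.74 ± 0.13) and Tpx2 (-0.53 ± 0.09) fell in limma's trend, with adjusted p from 0.00073 to 0.023; without 4 weeks replicate 1 only Ccna2 of these kept its call. The r of Anln with that mean was 0.01 over the 10 arrays. Septins and anillin partners gave 0 calls among 10, with all 10 changes below 0, a median of -0.08, and values of -0.13 ± 0.08 for Septin2 and -0.06 ± 0.07 for Septin4.

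Tested for any difference between ages with limma's F-test, 0 of the 10 genes passed after adjustment, beside 0.167% of all genes. At an unadjusted p under 0.05 there were 5, Il33, Apod, Trf, Ndrg1 and Anln, beside 8.46% of all genes.

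Other genes of the lineage were set beside the 10 by lists. Of 14 genes of compact myelin and the myelin surface 7 fell in limma's trend and 0 rose, with a median of -0.43, against 0.003 over all genes and 0.12 over the 10 genes. The falls were those of Mog (-0.76 ± 0.07, adjusted p = 0.00038), Mag (-0.72 ± 0.10), Tspan2 (-0.72 ± 0.09), Cldn11 (-0.66 ± 0.08), Cnp (-0.57 ± 0.09), Mal (-0.46 ± 0.07) and Cd9 (-0.39 ± 0.07). Mbp had -0.27 ± 0.06 with no call. Of 12 newly formed oligodendrocyte genes 4 fell, Enpp6 (-1.18 ± 0.15), Bmp4 (-0.96 ± 0.08), Gpr17 (-0.77 ± 0.09) and Bcas1 (-0.40 ± 0.08), and of 12 precursor and lineage genes 3 did, Olig2 (-0.50 ± 0.08), Olig1 (-0.32 ± 0.06) and C1ql1 (-0.32 ± 0.06). The precursor markers Pdgfra and Cspg4 had -0.16 ± 0.08 and -0.14 ± 0.07 with no call. In these bulk samples fewer cells of a type and less RNA per cell cannot be told apart.

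A list of 19 measured genes that are also known from late mature oligodendrocytes had a median of -0.03. That is closest to the 0.003 over all genes, and lies between -0.43 for compact myelin and 0.12 for the 10 genes. Of the 19, Opalin, a sialylated membrane protein (-0.56 ± 0.12, limma adjusted p = 0.049), and the actin-severing Gsn (-0.38 ± 0.06, adjusted p = 0.014) fell in the trend. In that list 0 rose, with 9 changes above 0 and 10 below. Ptgds, the first of the list, went from 12.36 ± 0.07 at 4 weeks to 12.63 ± 0.02 at 12 weeks (SD, n = 2), and Hapln2, a link protein of the node of Ranvier, from 7.87 ± 0.02 to 8.00 ± 0.18. Neither was called. Of the 16 lineage genes named as called from these 4 lists, 6 kept the call in every alternative fit run, Mog, Mag, Tspan2, Cldn11, Enpp6 and Bmp4, while 9 lost it without 4 weeks replicate 1 and 8 without 4 weeks replicate 2.

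**Figure D4:**
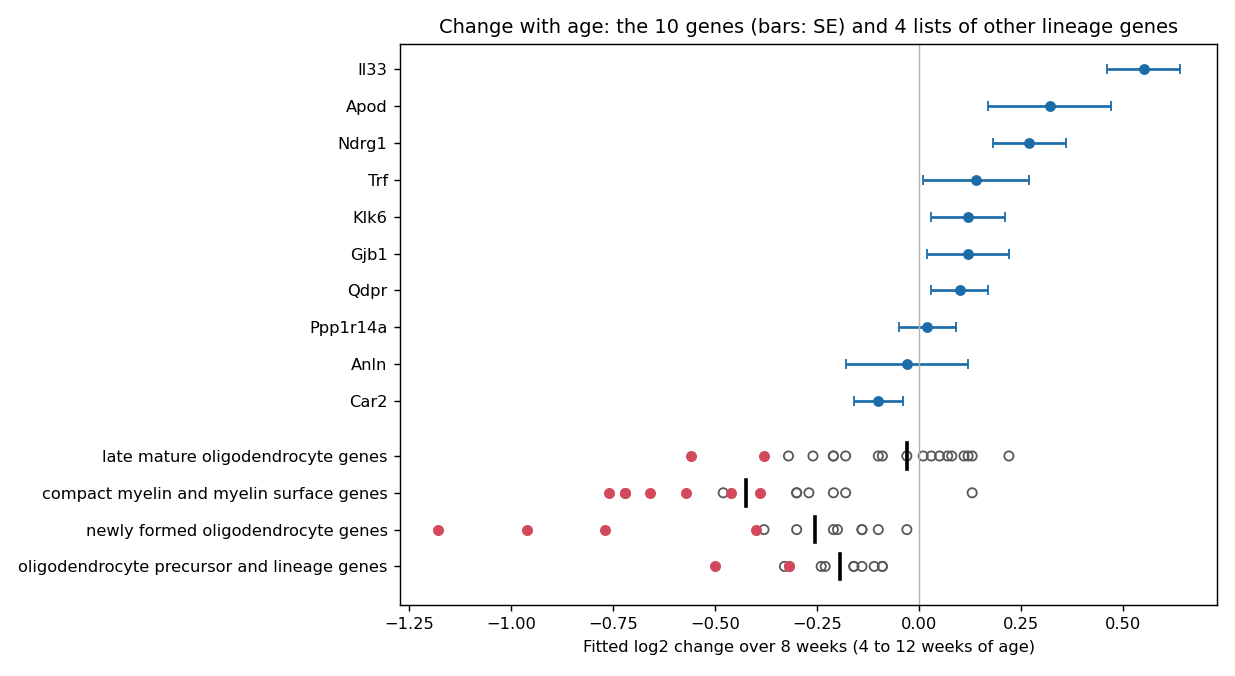
Fitted log2 change over the 8 weeks, for the 10 genes (points with SE bars) and for the measured genes of 4 lists, 1 point per gene. Filled points passed limma's trend test over all genes, open points did not, and black ticks are list medians. Il33 is farthest to the right at 0.55, and the median of the compact myelin genes is -0.43.

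Within each array, the level of each gene was also taken as a difference from the mean of the 9 defining oligodendrocyte markers, among them Mbp, Mog, Mag and Cnp. That mean was 10.67 at 4 weeks and 10.19 at 12 weeks. For all 10 genes both 12-week arrays had a larger difference than both 4-week arrays, and the fitted change of the difference ran from 0.40 for Car2 to 1.05 for Il33. This is a ratio within an array, and shows unequal change without saying which side of it changed. The marker mean itself had a fitted change of -0.5, beside a median of 0.003 over all genes. A gene with no change of its own would thus also have a larger difference at 12 weeks. The share of all genes with such a difference was not counted, so nothing is read from its presence in all 10. Il33 had an r of -0.94 with the marker mean over the 10 arrays, Ndrg1 -0.65, Apod -0.48 and Car2 0.48.

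Astrocyte, microglial and choroid plexus markers were read for the genes that those cells share. Of 10 astrocyte markers 0 were called in limma's trend and the median was -0.11, with -0.20 ± 0.10 for Aqp4. Their mean lay between 11.36 and 11.39 at 4 weeks and between 11.29 and 11.32 at 12 weeks, and its r with Il33 was -0.47. Choroid plexus markers gave 0 calls among 9, with -0.63 ± 1.04 for Ttr and -0.01 ± 0.26 for Folr1, and their mean lay at 9.05 on 6 weeks replicate 1 and from 7.52 to 7.74 on the others. Trf had its highest level, 11.56, on that array and on 12 weeks replicate 2. Car2 (11.73) and Apod (12.28) were also highest on 6 weeks replicate 1. With the choroid plexus mean Trf and Car2 each had an r of 0.46, which was 0.27 and -0.21 without 6 weeks replicate 1. Without it the r was 0.49 for Apod, 0.52 for Il33, and 0.63 for both Klk6 and Ppp1r14a. It was 0.73 for Ndrg1, 0.76 for Gjb1, 0.77 for Qdpr and -0.01 for Anln. The change of Trf was 0.20 without the pair of arrays that stood apart. Microglial markers gave 0 calls among 9 (median 0.11), with 6 changes above 0 and 3 below. The first 2 of that list, Cx3cr1 (-0.14 ± 0.06) and P2ry12 (-0.18 ± 0.08), were among those below. Of 10 granule neuron markers Ntng1 rose (0.55 ± 0.09) and Tdo2 fell (-0.44 ± 0.08). Both calls were lost without either 4-week array, without 12 weeks replicate 1 and without both 12-week arrays. That of Tdo2 was also lost with median centring, and without either 6-week array, 10 weeks replicate 2 or 12 weeks replicate 2. Prox1 and C1ql2 had -0.14 ± 0.07 and 0.19 ± 0.06, and the median was 0.05.

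By Pearson r over the 10 arrays, among the 13826 genes above the dim reference that remained once 557 predicted genes and the 10 genes themselves were left out, the genes whose levels went most like those of Il33 were Btrc (0.966) and N4bp1 (0.958). For Apod they were Cp, the copper-carrying ferroxidase ceruloplasmin (0.935), and Tprkb (0.921), and for Trf Fam20b (0.923) and Slc20a2 (0.922). For Ndrg1 they were Fah (0.945) and Gatm, the creatine synthesis enzyme of the late oligodendrocyte list (0.933). Qdpr went most like Cldn5, the tight junction gene of endothelium (0.960), and Slc66a2 (0.947), and Car2 like Hccs (0.980) and Pld2 (0.940). The remaining pairs were Tmem268 (0.921) and Rps19 (0.914) for Klk6, Mir673 (0.976) and Mir483 (0.965) for Gjb1, Vstm4 (0.899) and Fbxo2 (0.896) for Ppp1r14a, and Kat14 (0.909) and Kcnmb2 (0.887) for Anln. With so many candidates and 10 arrays, high values arise for any gene, and they describe likeness only.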

How the data were processed

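The authors deposited 1 value per probe set and array, taken here as log2 expression because the values run continuously from 2.50 to 15.04; the log base, background correction, summarization and normalization were not given in the sources used here. The build mm10 is named in the submitters' processing notes. Of 25254 probe sets 21496 named 1 gene, 1565 several and 2193 none; only the first were used, the brightest per gene, giving 19752 genes, dim ones included. Symbols and coordinates come from RefSeq (GRCm38.p6), as do the promoter windows.

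Age and replicate were read from the sample titles. limma 3.58.1 in R 4.3.3 fitted age in weeks as a number (change over 8 weeks), and age as a factor for 12 against 4 weeks and the F-test, two-sided, with Benjamini-Hochberg adjustment over all genes and a threshold of 0.05. The script was tested on simulated data. The genes followed, the lists (some share genes), the rule for named genes and the alternatives were chosen with earlier results of these data known. Named are the 10 genes, the 2 most correlated genes of each, and of each list the called genes and the first 2 measured. Over all genes 29 rose and 133 fell in the trend, and 65 and 131 after quantile normalization; for 12 against 4 weeks the counts were 25 and 77, and 54 and 87.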

Additional observations from a re-analysis of the deposited data

How the results depend on the processing

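The trend was repeated under 21 alternatives, the comparison of 12 with 4 weeks under 19 and the F-test under 20. The change of Il33 kept its direction in all of them (0.48 to 0.71) and its call in 19, being lost without 4 weeks replicate 1 or 2. Its call and that of Apod between 12 and 4 weeks were kept in 12 of 19 alternatives each, and lost with the replicate block and without either array of 4, 10 or 12 weeks. Directions of Trf, Ppp1r14a and Anln turned in at least 1 alternative, and those of the other 7 genes in none. Of 209 refitted changes of the 10 genes 193 moved by less than the within-age SD. Klk6 was left out where the dimmest 30% of genes were removed. The number of the 10 genes called was 0 to 1 when 1 array was left out.

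Over all genes the trend had 162 calls, 12 against 4 weeks 102 and the F-test 33. Without the dimmest 30% of genes they were 337, 210 and 69, with trended variances 350, 303 and 151, and with array weights 417, 261 and 69. Without both 12-week arrays the trend had 51 and the F-test 3. Leaving out 1 array gave 35 to 279, 13 to 188 and 5 to 50. The cause of these shifts was not tested. With the replicate number as a block the counts were 161, 66 and 13. Deviations of arrays with the same number correlated between -0.335 and 0.16 over all genes. The labels do not say whether the numbers pair the arrays. These correlations cannot exclude a pairing that affects only part of the genes. The 2 arrays per age limit what can be detected.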
